A study of Mus musculus with 3 samples.

Results

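Conventional CD4 T cells, the helper T cells that carry the CD4 co-receptor and do not express Foxp3, were picked out of single-cell RNA profiles of the mouse jaw by their raw transcript counts. A transcript is counted once per UMI, the unique molecular identifier that marks 1 captured RNA molecule. Barcodes, each taken as 1 cell, entered with 500 or more UMIs, 250 or more genes and no more than 15% of UMIs from mitochondria. Members were chosen by the measured UMIs of marker genes: a kept cell was a member when it held at least 2 UMIs over the CD3 genes Cd3d, Cd3e and Cd3g and at least 1 Cd4 UMI. It also had to hold no UMI of Cd8a, Cd8b1 or Foxp3, at most 1 of Trdc and at most 1 over Cd79a and Cd79b. By this rule 155 of 20504 kept cells were conventional CD4 T cells, 69 in the library called Ctrl, 11 in the library called 1d and 75 in the library called 7d.

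The study used 24 male wild-type C57BL/6 mice aged 10 weeks in 3 equal groups. Ctrl mice were untreated, while mice of the 1d and 7d groups received 10 Gy of irradiation to the head and neck and were killed 1 or 7 days later. Jaw tissue was minced, digested with collagenase, frozen and thawed, and the 8 mice of a group were pooled into 1 droplet library. Each group is therefore 1 library with no replicate, so no difference between groups was tested and all intervals given are exact 95% intervals that cover counting error only.

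CD4 T cells recognise peptides on MHC class II molecules through the alpha beta T cell receptor, and after activation they direct other immune cells with cytokines and contact signals. Naive cells recirculate through lymphoid organs under Ccr7 and Klf2, whereas activated and memory cells express costimulatory receptors such as Icos and Tnfrsf4 and can settle in tissues. In the jaw, they are known from the marrow of the alveolar bone and from the gingiva. Lymphocytes are among the most radiosensitive cells of the body.

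The values of the genes used to select members describe the choice and are no finding. Trac, the constant region of the T cell receptor alpha chain, was not part of the rule and was seen in 46 of 69, 10 of 11 and 57 of 75 members of Ctrl, 1d and 7d. Trac or a beta constant region was seen in 68, 11 and 71 members. Icos, a costimulatory receptor of activated T cells, was seen in 40, 6 and 38 members (58.0%, 54.5% and 50.7%). Among B cells of the same libraries, with median depths of 2033, 2772.5 and 2422 UMIs against 2630, 4043 and 3294 in the members, Icos was seen in 0.584%, 0% and 0.305%. The marker genes of the label were thus present in the cells that the rule chose.

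Members at the edge of the rule were frequent, because Cd4 RNA is sparse. Exactly 1 Cd4 UMI was held by 50 of 69, 6 of 11 and 50 of 75 members, and exactly 2 CD3 UMIs by 16, 4 and 22 members. Just outside, 20, 0 and 17 cells met every other condition with 1 CD3 UMI. A further 566, 60 and 846 CD3 cells held no UMI of Cd4, Cd8a, Cd8b1 or Foxp3 and fewer than 2 of Trdc, which was 50.5%, 43.2% and 54.7% of all cells with 2 or more CD3 UMIs. The members are therefore a sample of the CD4 T cells present, and it cannot be told how many of the cells without a co-receptor UMI belonged to them.

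Some members also held RNA of other cells. At least 15 UMIs of granulocyte, erythroid, myeloid, mesenchymal or epithelial genes were held by 8 Ctrl members, 0 of the 1d members and 5 of the 7d members, and these cells carried 31.7%, 0% and 17.1% of the members' UMIs. In Ctrl, 1 such cell held 183 UMIs of the cytokine gene Il6, the whole Ctrl total of that gene. At 7d, 1 cell held 2642 of the 2796 UMIs of the 14 neutrophil genes, and 1 held 5836 of the 7194 UMIs of the 10 erythroid genes. Summed levels of the neutrophil list were 4040, 903 and 9333 CPM (a gene's UMIs relative to all UMIs summed over the members, on the usual CPM scale) in Ctrl, 1d and 7d, and those of the erythroid list were 2517, 480 and 24013 CPM. The monocyte and macrophage list summed to 427, 268 and 951 CPM with C1qb and Fcgr1 at 0 in all 3 libraries, and the B cell list to 111, 42.4 and 30.0 CPM with Ms4a1 at 0. The part of these cells in the results was not tested beyond leaving them out. Results are given with all members and, where it matters, without these 13 mixed cells, which leaves 61, 11 and 70 cells. The choice of that comparison was made after seeing the data.

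Depth differed between the libraries. They held 41048084, 46119700 and 49998293 UMIs, with medians of 2463, 5196 and 3935 per kept cell in Ctrl, 1d and 7d. The members summed to 278939, 70837 and 299590 UMIs, and the 3 deepest members held 23.4%, 61.2% and 14.6% of these. The 1d values thus rest largely on 3 cells. Between 12 and 24 barcodes were shared by each pair of libraries, none of them a member in both, and 1 member barcode appeared in another library.

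At the deposited depth, conventional CD4 T cells were scarcest at 1d and most frequent at 7d. They were 0.777% of kept cells in Ctrl (0.605 to 0.982), 0.215% at 1d (0.107 to 0.384) and 1.15% at 7d (0.909 to 1.44). The 1d share was 0.276 of the Ctrl share (0.132 to 0.525) and the 7d share was 1.49 times it (1.06 to 2.09). Leaving out the mixed members gave ratios of 0.312 (0.148 to 0.599) and 1.57 (1.10 to 2.25). When neutrophils and erythroid cells were left out of the denominator, the 7d ratio was 1.19 with an interval from 0.843 to 1.69, which includes 1. With at least 3 CD3 UMIs required it was 1.37 (0.916 to 2.04). With every cell thinned to 1000 UMIs before the rule was applied, 16 Ctrl cells and 13 cells at 7d met it, and the ratio was 1.08 (0.476 to 2.38).

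The pattern was that of T cells as a whole. All cells with 2 or more CD3 UMIs made up 12.6%, 2.71% and 23.8% of kept cells in Ctrl, 1d and 7d, a ratio of 0.215 at 1d (0.179 to 0.257) and 1.89 at 7d (1.75 to 2.04). CD8 T cells, with at least 1 Cd8a or Cd8b1 UMI and no Cd4 UMI, had ratios of 0.225 and 2.0. Within the CD3 cells the CD4 members were 6.16% in Ctrl (4.82 to 7.73), 7.91% at 1d (4.02 to 13.7) and 4.84% at 7d (3.83 to 6.04). These intervals overlap. There were 0.214 CD4 members per CD8 T cell in Ctrl (0.162 to 0.278), 0.262 at 1d (0.122 to 0.518) and 0.159 at 7d (0.123 to 0.203). A lower share of one cell type can arise from loss of that type or gain of others, and these cannot be told apart in shares of 1 pool.

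**Figure D1:**
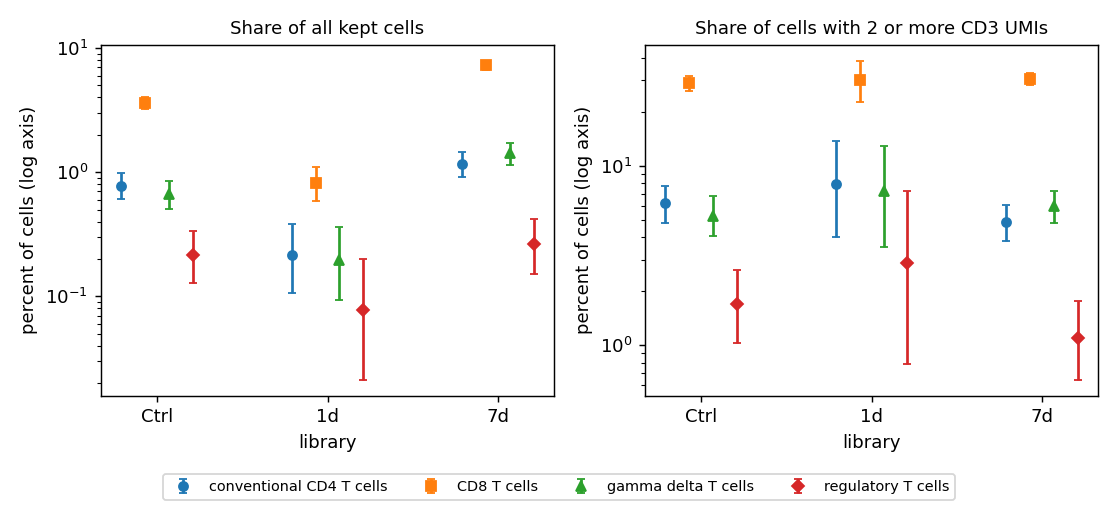
Shares of conventional CD4, CD8, gamma delta and regulatory T cells in the 3 libraries, as percent of all kept cells (left) and of cells with 2 or more CD3 UMIs (right), both on log axes, with exact 95% binomial intervals. On the left the CD4 share is 0.777% in Ctrl, 0.215% at 1d and 1.15% at 7d, and on the right the 3 CD4 intervals overlap.

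Compared with CD8 T cells of the same library, conventional CD4 T cells carried more RNA of several genes, among them those of the receptors OX40 and ICOS and of the transcription factors Maf, Rora and Gata3. Genes at least 2-fold higher in CD4 than in CD8 T cells made up 9.77% of genes in Ctrl, 17.3% at 1d and 10.3% at 7d among those with at least 20 UMIs over both cell types, and genes at least 2-fold lower made up 6.42%, 10.5% and 7.54%. Of 2292 genes measured in all 3 libraries, 27 (1.18%) were at least 2-fold higher in every one and 7 (0.305%) at least 2-fold lower. With 3 libraries the smallest two-sided p of an exact sign-flip permutation test is 0.25, so none was computed. Since the gate splits the same cells on Cd4 and Cd8 RNA, these values describe the 2 gates. Some of these genes, Tnfrsf4 and Ctla4 among them, are also in the list of regulatory T cell genes, and the part of such cells was not tested.

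Tnfrsf4, which encodes the costimulatory receptor OX40, stood furthest apart. Its level in the members was 319 CPM in Ctrl (256 to 393), 409 at 1d (274 to 588) and 214 at 7d (165 to 273), which was 18.6, 50.5 and 22 times the level in CD8 T cells. Maf, a transcription factor that drives Il10 and Il21 in helper cells, was at 276, 480 and 324 CPM, or 7.05, 23.7 and 7.84 times the CD8 level. Tbc1d4, a regulator of glucose transporter traffic, was 6.68, 6.96 and 16.0 times higher. The retinoid-related receptor gene Rora had ratios of 4.65, 4.84 and 4.84.

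Icos was 3.14, 7.37 and 4.00 times higher than in CD8 T cells, the inhibitory receptor gene Ctla4 was 3.87, 4.35 and 6.25 times higher, and Gata3, which directs T cell development and the Th2 programme, was 5.00, 3.48 and 3.16 times higher. The hypoxia-inducible factor gene Hif1a had ratios of 4.28, 3.75 and 3.45, and Cd5, which tunes receptor signalling, had 3.22, 2.74 and 4.05. S100a4, a calcium-binding protein of memory T cells, was 6.50, 2.64 and 2.81 times higher. Without mixed cells in either type, which left out 102 CD8 T cells, 25 of the 27 genes were still at least 2-fold higher in all 3 libraries, among them Tnfrsf4 at 20.6, 39.2 and 19.8.

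Fewer genes were lower. Excluding gene models, 5 genes were named on that side: Bend4, Fam241a, Camp, Ccdc117 and Irak2. Camp encodes a granule peptide of neutrophils, and without mixed cells its ratios were 0.884, 1.05 and 0.960. Of the 5, 3 were still at or under 0.5 in all libraries without those cells.

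**Figure D2:**
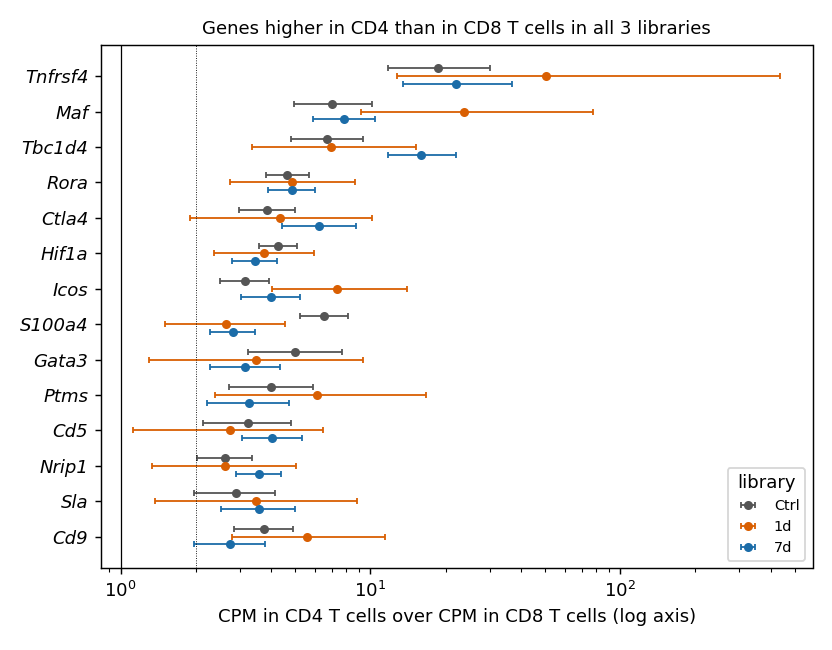
CPM in conventional CD4 T cells over CPM in CD8 T cells of the same library (log axis) for 14 genes that were at least 2-fold higher in all 3 libraries, with exact 95% intervals of the ratio. Tnfrsf4 reads 18.6, 50.5 and 22, and the 1d intervals are the widest because 11 members were found there.

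The members were a mixture of naive-marked and memory-marked cells. After thinning each cell to 1000 UMIs, cells with at least 1 UMI of 6 naive genes, among them Ccr7, Lef1 and S1pr1, and none of 13 memory genes, among them Icos, Maf and Cxcr3, were 13.0% of members in Ctrl (6.14 to 23.3), 0 of 10 at 1d and 20% at 7d (11.6 to 30.8). The 0 of 10 allows a share of up to 30.8%. Cells with memory genes only were 31.9%, 30.0% and 33.3%, and cells with both were 50.7%, 70.0% and 44.0%. Without thinning, naive-only cells were 5.80%, 0% and 8.0%. A separate thinning draw over the members that were not mixed gave 19.7% in Ctrl (12 of 61) and 18.6% at 7d (13 of 70). The draw and the members both differ between these values. In CD8 T cells thinned the same way the naive-only share was 25.7%, 38.1% and 27.8%, above the CD4 share in each library. Without thinning the CD8 share was 4.64%, 4.76% and 9.11%, below the CD4 share in Ctrl. Without mixed cells it was 22.5%, 25.0% and 27.8%. Icos, Maf and Rora, among the memory genes, were higher in CD4 T cells, which makes the naive-only definition harder for CD4 members to meet.

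Signature genes of helper subsets were thinly spread. At least 1 UMI of the Th1 set was held by 33.3%, 72.7% and 40.0% of members in Ctrl, 1d and 7d, and by 13.0%, 40.0% and 17.3% after thinning. B cells, which should lack these genes, reached 2.57%, 1.22% and 3.05% without thinning. CD8 T cells reached 36.2%, 38.1% and 29.2%, and 12.4%, 11.9% and 11.9% after thinning, so the Th1 set was not particular to the CD4 members. The follicular helper (Tfh) set was seen in 44.9%, 54.5% and 32.0% of members, but also in 31.4%, 19.2% and 29.6% of B cells, which share several of its genes. The Th2 set was seen in 5 of 69, 1 of 11 and 0 of 75 members. The last count allows a share of cells with a detected UMI of up to 4.80%, and sparse RNA can be missed at this depth. The Th17 set was seen in 0 of 69, 0 of 11 and 2 of 75 members. All 6 UMIs of Il17a, the defining Th17 cytokine, came from 1 cell at 7d. Receptor V segments were read in 9, 1 and 6 members, too few to describe clones.

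At 7d the lists of receptor-induced early genes and Th1 genes had more members past 2-fold above Ctrl than below, and the p53 and interferon lists more below than above. Nr4a3, Txnip, Klf2 and Ccl5 stood on the higher side and Elovl6, Fas and Tnfrsf18 on the lower side. Among 4202 genes with at least 20 UMIs over the 2 libraries, 286 (6.81%) were at least 2-fold higher and 360 (8.57%) at least 2-fold lower, and the median log2 ratio was 0.017. Without the mixed members 225 of 3372 genes (6.67%) were higher and 201 (5.96%) lower. Gene levels are summed UMIs from the 3′ ends of transcripts and are compared between libraries for 1 gene, not between genes.

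Nr4a3, an orphan nuclear receptor induced within hours of T cell receptor signalling (chromosome 4, 48045153 to 48086447, mm10), was at 247 CPM in Ctrl (192 to 313), 551 at 1d (392 to 753) and 1025 at 7d (913 to 1146). The 3 intervals do not overlap, and the 7d level was 4.14 times the Ctrl level (3.18 to 5.46). It was seen in 30 of 69 Ctrl members and 58 of 75 members at 7d (43.5% and 77.3%), and in thinned cells in 26.1% and 50.7%. B cells gave 15.6% and 12.3% in thinned cells. CD8 T cells had a ratio of 3.31 (2.94 to 3.73).

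The other receptor-induced early genes varied. Of 17 measured genes of that list, 4 were at least 2-fold higher at 7d and 1, Egr1, at least 2-fold lower, with a median log2 ratio of 0.39. Nfkbid, an atypical inhibitor of NF-kB that follows receptor signalling, was 3.78 times higher (2.16 to 7.00), and Cd69, an early activation antigen and retention signal, was 1.82 times higher (1.26 to 2.67). Nr4a1, a relative of Nr4a3, was 1.74 times higher (1.32 to 2.30), or 2.66 times (1.83 to 3.98) without the mixed members. Leaving out the mixed members, 4 of 15 were higher and 0 lower, and the median was 0.85. In CD8 T cells the median of the list was 0.55.

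Klf2, the transcription factor that keeps T cells quiescent and recirculating (chromosome 8, 72319033 to 72321656), was at 305, 508 and 821 CPM in Ctrl, 1d and 7d. The 7d to Ctrl ratio was 2.69 (2.10 to 3.49), and Klf2 was the one gene of the 16 measured in the naive and quiescence list to pass 2-fold. B cells held it at 457 CPM in Ctrl and 720 at 7d, and CD8 T cells had a ratio of 2.50. Ccr7, the lymph node homing receptor, had a ratio of 1.24 (0.932 to 1.66), and Tcf7, a factor of naive and stem-like T cells, 1.69 (1.24 to 2.32). The list had a median log2 ratio of 0.13, and of -0.079 without the mixed members.

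Txnip, which restrains glucose uptake and binds thioredoxin, was at 75.3 CPM in Ctrl (46.6 to 115), 522 at 1d (368 to 720) and 371 at 7d (305 to 446). At 1d 81.1% of its UMIs lay in 1 cell. At 7d it was seen in 44 of 75 members against 13 of 69 in Ctrl, and its ratio was 4.92 (3.07 to 8.26). Tsc22d3, a glucocorticoid-induced leucine zipper gene, was 2.70 times higher (1.62 to 4.68), and 4.37 times (2.21 to 9.61) without the mixed members. Both were also higher in CD8 T cells, at 4.32 and 1.93 times. B cells held Txnip at 106 CPM in Ctrl and 267 at 7d.

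Several further genes were higher, and Ubl3, Vsir and Jmy had ratios well above those of CD8 T cells. Ubl3, a membrane-anchored ubiquitin-like protein, was 3.06 times higher (2.26 to 4.2) against 1.32 in CD8 T cells. Vsir, which encodes the checkpoint receptor VISTA, was 4.92 times higher (2.17 to 13.1) against 1.46, and the actin nucleator Jmy 3.49 times (2.11 to 6.04) against 1.28. Kif21b, a kinesin, went from 3 to 25 UMIs, a ratio of 7.76 (2.37 to 40.1). Clp1, an RNA kinase of transcript processing, and Arl8a, a lysosomal GTPase, each went from 1 UMI to 19, a ratio of 17.7 with an interval from 2.81 to 735. The lipid transporter gene Abca7 went from 2 to 20 UMIs. After thinning, which leaves few of its UMIs, Arl8a had a ratio of 0.307, and in members under 7000 UMIs it had 9.77.

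Genes of the T cell receptor complex were modestly higher. Of 16 measured genes, 14 had a ratio above 1 and 2 passed 2-fold, with a median log2 ratio of 0.54. Ptprc, the CD45 phosphatase of all white blood cells, was at 660, 833 and 1382 CPM, a ratio of 2.09 (1.76 to 2.51). Cd247, the zeta chain of the receptor complex, was 2.30 times higher (1.48 to 3.64), and Trac 1.61 times (1.29 to 2.02). Cd3e, a gate gene, had a ratio of 1.16. With the mixed members left out none passed 2-fold and the median was 0.42, while in CD8 T cells it was -0.10.

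Some costimulatory and inhibitory receptors of activated cells were lower at 7d, while others of that list were not. Tnfrsf18, which encodes the costimulatory receptor GITR, was at 244 CPM in Ctrl (189 to 309), 198 at 1d (108 to 332) and 90.1 at 7d (59.4 to 131), a ratio of 0.370 (0.228 to 0.585). Icos was at 470, 508 and 274 CPM, a ratio of 0.583 (0.437 to 0.774), and Ctla4 at 380, 212 and 210 CPM, a ratio of 0.553 (0.399 to 0.763). Pdcd1, the gene of the inhibitory receptor PD-1, had a ratio of 0.499 (0.248 to 0.966). Of the 12 measured genes of the costimulation and checkpoint list, 2 were at least 2-fold lower and 1, the exhaustion-linked factor Tox at 2.33 (1.27 to 4.45), higher, while 5 had a ratio above 1 and the median log2 ratio was -0.35. Without the mixed members 1 was lower and none higher, with Tox at 1.82 (0.992 to 3.50). The regulatory T cell list, which includes Tnfrsf18 and Ctla4, summed to 1384, 1412 and 851 CPM in the members of Ctrl, 1d and 7d with Foxp3 at 0 by the rule, and the part of such cells was not tested. CD8 T cell ratios of Tnfrsf18, Icos, Ctla4 and Pdcd1 were 0.156, 0.457, 0.342 and 0.179.

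The activated and memory list lay on the lower side at 7d by its median, while single genes linked to activation went both ways. It had 21 measured genes, of which 1 passed 2-fold on each side, and a median log2 ratio of -0.55. Without the mixed members the median was -0.45, with 9 genes above a ratio of 1 and 12 below. Among its genes with at least 100 UMIs the median was 0.051. Cd44, the classical memory marker, was at 412 and 427 CPM in Ctrl and 7d, a ratio of 1.04 (0.799 to 1.34). Gata3 had a ratio of 1.16 (0.769 to 1.76), Bcl6, the factor of follicular helper cells, 1.24 (0.646 to 2.43), and Rora 0.662 (0.527 to 0.829). Stat3, the transducer of IL-6 and IL-21 signals, was lower at 0.554 (0.459 to 0.669), and in CD8 T cells at 0.393. Ramp3, an accessory protein that partners certain receptors, was at 617, 155 and 257 CPM, a ratio of 0.417 (0.314 to 0.548).

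**Figure D3:**
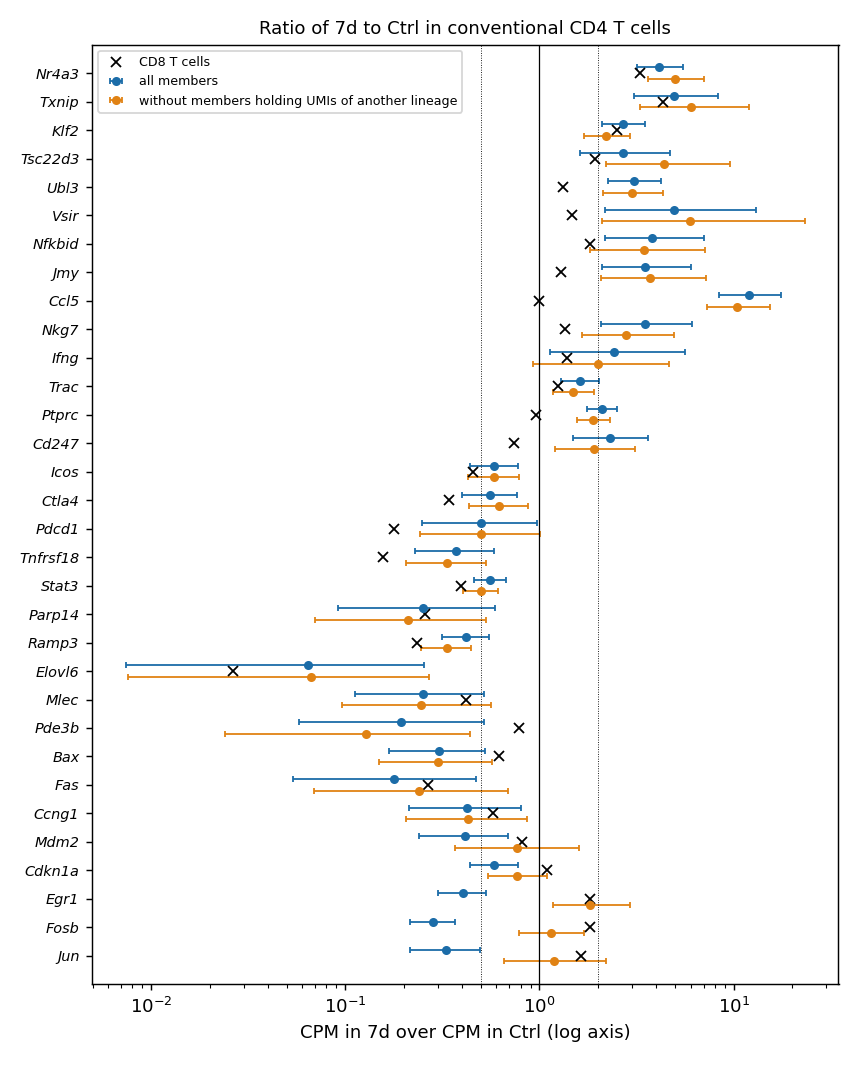
Ratio of CPM at 7d to CPM in Ctrl (log axis) for named genes in all members (blue) and without the mixed members (orange), each with its exact 95% interval, and in CD8 T cells (crosses), with dotted lines at ratios of 0.5 and 2. Ccl5 at 12 and Nr4a3 at 4.14 lie to the right and Elovl6 at 0.0642 to the left, and Egr1, Fosb and Jun lie on opposite sides of 1 with and without the mixed members.

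Interferon-response genes were lower at 7d as a list. Of 46 listed genes 18 were measured, 15 had a ratio below 1, 4 were at least 2-fold lower and 1, the nucleic acid sensor Zbp1, at least 2-fold higher. The median log2 ratio was -0.48, against 0.017 over all genes. Parp14, an interferon-induced ADP-ribosyl transferase, had a ratio of 0.251 (0.0919 to 0.593). Without the mixed members 14 genes were measured, 4 were lower and the median was -0.62, and in CD8 T cells the median was -0.72.

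Gbp2, an interferon-induced GTPase that attacks vacuoles of intracellular pathogens (chromosome 3, 142620602 to 142638008), went from 16 UMIs in 9 Ctrl members to 4 UMIs in 3 members at 7d, a ratio of 0.233 (0.0566 to 0.722). Thinned to equal depth its ratio was 1.84, so at these counts no direction holds. Its promoter is shown because it carries the letters of an interferon-stimulated response element in the list whose genes were lower. The window runs from 250 bases before to 50 after the RefSeq transcript start at chr3:142620413-142620712 on the plus strand of GRCm38.p6, and capitals mark TTTC, any 2 bases and TTTC again, a match that begins 59 bases before the start.
Gbp2: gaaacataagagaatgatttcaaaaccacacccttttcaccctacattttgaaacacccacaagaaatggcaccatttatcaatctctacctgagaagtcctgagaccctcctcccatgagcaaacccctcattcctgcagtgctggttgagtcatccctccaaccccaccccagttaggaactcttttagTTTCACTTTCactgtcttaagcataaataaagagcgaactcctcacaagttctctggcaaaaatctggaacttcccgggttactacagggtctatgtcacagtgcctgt
This motif, with N for any base between its TTTC parts and searched on both strands, was present in 3.44% of 32851 promoter windows of the same length and in 3.99% of 27025 gene symbols. Of the 12 measured interferon genes with a window, 7 held it: Isg15, Bst2, Ifi203, Gbp2, Igtp, Irgm1 and Trim30a. A match describes the letters of the window and is neither a bound site nor a cause.

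Targets of the DNA damage factor p53 lay on the lower side at 7d. Of 40 listed genes 18 were measured, of which 8 were at least 2-fold lower and none higher, with a median log2 ratio of -0.72. Fas, a death receptor, went from 93.2 CPM in Ctrl (60.9 to 137) to 28.2 at 1d (3.42 to 102) and 16.7 at 7d (5.42 to 38.9), and Bax, which opens the mitochondrial membrane in apoptosis, from 197 to 141 and 60.1 CPM. Their ratios were 0.179 (0.0537 to 0.474) and 0.305 (0.168 to 0.527). Mdm2, the ligase that degrades p53, had a ratio of 0.412 (0.241 to 0.685) with all members and 0.767 (0.368 to 1.60) without the mixed ones, and the cell cycle inhibitor gene Cdkn1a 0.583 and 0.767. Without the mixed members the median was -0.29 and 4 of 14 were lower, Ccng1, Bax, Fas and Tnfrsf18, and 1, Bbc3, higher. The list median in CD8 T cells was -0.095.

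Single genes of metabolism and of cell organelles were also lower. Elovl6, which elongates long-chain fatty acids (chromosome 3, 129532355 to 129638495), was at 104 CPM in Ctrl (69.6 to 149), 28.2 at 1d (3.42 to 102) and 6.68 at 7d (0.808 to 24.1). It was seen in 16 of 69 Ctrl members and 2 of 75 members at 7d, a ratio of 0.0642 (0.00742 to 0.254), and in CD8 T cells its ratio was 0.0264. In B cells Elovl6 stood at 4.86 CPM in Ctrl and 30.8 at 7d, the other direction. Pde3b, a phosphodiesterase that breaks down cyclic AMP, had a ratio of 0.194 (0.0578 to 0.519) against 0.785 in CD8 T cells, and Mlec, a lectin of the endoplasmic reticulum, 0.252 (0.112 to 0.516). Atp5g1, a subunit of the mitochondrial ATP synthase, had a ratio of 0.358 (0.216 to 0.576) against 0.990 in CD8 T cells, and Dnajc19, an import factor of mitochondria, went from 20 to 4 UMIs, although in thinned cells its ratio was 1.38. The difference between CD4 and CD8 T cells was not tested for any of these genes.

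Several immediate early genes depended on the mixed cells at 7d, while Fos did not. Egr1, Fosb and Jun, which respond within minutes to stimuli including tissue digestion, had 7d ratios of 0.402, 0.282 and 0.330 with all members. Leaving out the mixed members gave 1.83 (1.17 to 2.92), 1.15 (0.788 to 1.70) and 1.19 (0.657 to 2.20), and in CD8 T cells 1.81, 1.82 and 1.63. In Ctrl 1 cell held 36.7% of the Egr1 UMIs, 41.9% of those of Fosb and 52.7% of those of Jun. The list of 21 genes had 6 lower and 1 higher with a median log2 ratio of -0.14, and of 0.42 without those members. Leaving them out, 4 of 20 measured genes were higher and 1, Fos, lower, at a ratio of 0.455 (0.291 to 0.703).

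A Ccl5-rich fraction of the members was larger at 7d. Ccl5, a chemokine of cytotoxic and Th1 effector cells (chromosome 11, 83525778 to 83530518), was at 122 CPM in Ctrl (84.4 to 170), 84.7 at 1d (31.1 to 184) and 1462 at 7d (1328 to 1606), a 7d ratio of 12 (8.45 to 17.5) and 10.41 (7.26 to 15.4) without the mixed members. CD8 T cells held it at the same level in both libraries, with a ratio of 0.999 (0.955 to 1.04), and B cells at 137 and 99.5 CPM. Cells with at least 5 Ccl5 UMIs, a limit chosen after its values were seen, were 2 of 69 Ctrl members (2.90%, 0.353 to 10.1), 0 of 11 members at 1d and 14 of 75 at 7d (18.7%, 10.6 to 29.3). The 14 cells held 97.3% of the Ccl5 UMIs of the 7d members. In CD8 T cells such cells were 37.2%, 35.7% and 45.6%, and in B cells 1.29%, 0.122% and 1.98%.

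These 14 cells shared further genes. Nkg7, a protein of cytotoxic granules, was seen in 10 of the 14 and in 8 of the 61 other members at 7d. Eomes, a T-box factor of cytotoxic and memory cells (chromosome 9, 118478212 to 118486132), was seen in 7 of the 14 and in 0 of the 61, and the interferon gamma gene Ifng in 7 and 8. Klf2 was seen in 5 of the 14 and in 48 of the 61, the reverse of Nkg7. Icos was seen in 9 and 29, Trac in 11 and 46, and the granzyme gene Gzmk in 5 and 2. The natural killer genes Ncr1 or Klrb1c were seen in 2 of the 14 and 0 of the 61. None of the 14 was a mixed member, their median depth was 4000.5 UMIs against 3106, and 7 of them held 2 or more Cd4 UMIs against 18 of the 61. The 10 genes of the CD8 list, which include Ccl5, Eomes and Gzmk, summed to 233, 141 and 1873 CPM in the members, with Cd8a and Cd8b1 at 0 by the rule. The 15 natural killer genes, Eomes among them, summed to 351, 0 and 658 CPM. The part of cells of those types in these counts was not tested. At least 1 UMI of a cytotoxic gene set was held by 30.4%, 45.5% and 37.3% of members in Ctrl, 1d and 7d. B cells, which should lack such genes, reached 5.32%, 3.79% and 17.4%, and after thinning 3.25%, 0.743% and 6.0%.

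**Figure D4:**
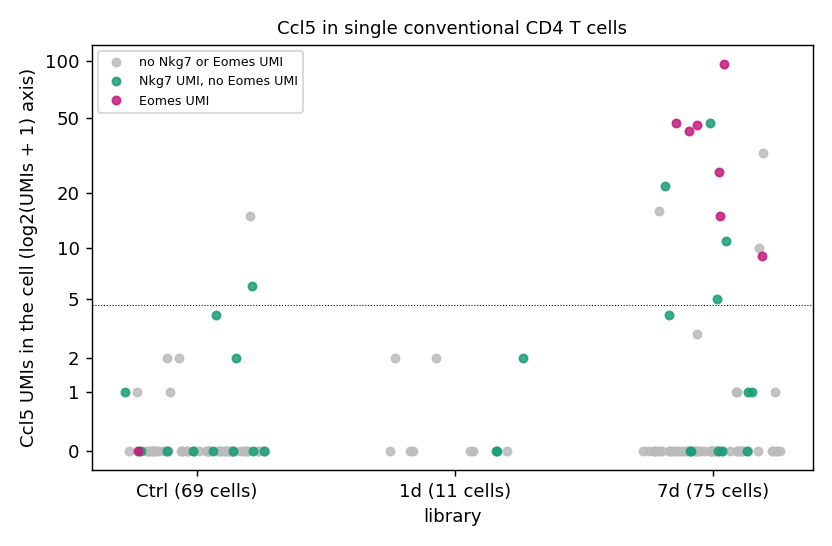
Ccl5 UMIs in each conventional CD4 T cell (log2 of UMIs + 1) in Ctrl, 1d and 7d, coloured by whether the cell held an Eomes UMI or an Nkg7 UMI, with the dotted line just under 5 UMIs. Above the line lie 2 of 69 cells in Ctrl, 0 of 11 at 1d and 14 of 75 at 7d, and 7 of the 14 held Eomes.

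The Th1 list contains several of these genes. Of 15 listed genes 12 were measured at 7d and 6 were at least 2-fold higher, Ifng, Ccl5, Nkg7, Tnf, Ly6c2 and Eomes, with none lower and a median log2 ratio of 0.67. Nkg7 was 3.48 times higher (2.07 to 6.11), Ifng 2.42 times (1.13 to 5.63), and Eomes went from 1 UMI to 26, a ratio of 24.2 with an interval from 3.98 to 992. At 7d 1 cell held 34 of the 69 Nkg7 UMIs outside the mixed members, and no cell held more than 8 Eomes UMIs. Across the processing settings the ratio of Nkg7 ran from 1.36 to 4.32 and that of Eomes from 1.23 to 46.0. Once the mixed members were left out, 3 of 11 were higher, Ccl5, Nkg7 and Eomes, 1 was lower and the median was 0.044. Ly6c2, which monocytes also express, had 72.1% of its 7d UMIs in 1 cell, and its ratio was 3.97 with all members and 1.04 without the mixed ones. In CD8 T cells the median of the list was 0.064.

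NF-kB genes and survival genes went both ways at 7d. Of 22 measured NF-kB genes, 4 were at least 2-fold higher and 2 lower, with a median log2 ratio of 0.25. Without the mixed members 6 of 21 were higher and 1 lower, with a median of 0.26. Over all genes 6.81% were higher and 8.57% lower, or 6.67% and 5.96% without the mixed members. Traf1, an adaptor of TNF family receptors, was 2.23 times higher (1.49 to 3.42), Birc2, an inhibitor of apoptosis, 2.13 times (1.30 to 3.60), and Nfkbie went from 4 to 19 UMIs. Bcl2 had a ratio of 1.00 (0.571 to 1.76). Cxcr4, the receptor that holds cells in the marrow, had 1.28 (1.02 to 1.61), and Il7r, the receptor for the survival cytokine IL-7, 0.742 (0.511 to 1.07). Without the mixed members Cxcr4 had 1.24 (0.962 to 1.60) and Il7r 0.631 (0.427 to 0.929), so which of the intervals includes 1 depends on those cells. The 20 measured genes of MHC class I presentation had none past 2-fold in either direction.

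The follicular helper list had 2 of 7 measured genes higher and 1 lower at 7d, beside 6.81% higher and 8.57% lower over all genes. Izumo1r, the folate receptor 4 of helper and regulatory T cells, was 2.0 times higher (1.15 to 3.59), and Il6ra, the IL-6 receptor, 2.54 times (1.38 to 4.95), or 1.64 (0.846 to 3.36) without the mixed members. Slc6a6, the taurine transporter, was at 168, 56.5 and 103 CPM in Ctrl, 1d and 7d, a 7d ratio of 0.614 (0.377 to 0.987) and 0.959 (0.472 to 1.98) without the mixed members. Fth1, the ferritin heavy chain, was at 6808, 3092 and 3114 CPM, with 7d ratios of 0.457 (0.423 to 0.495) and 0.758 (0.682 to 0.842) without the mixed members.

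**Figure D5:**
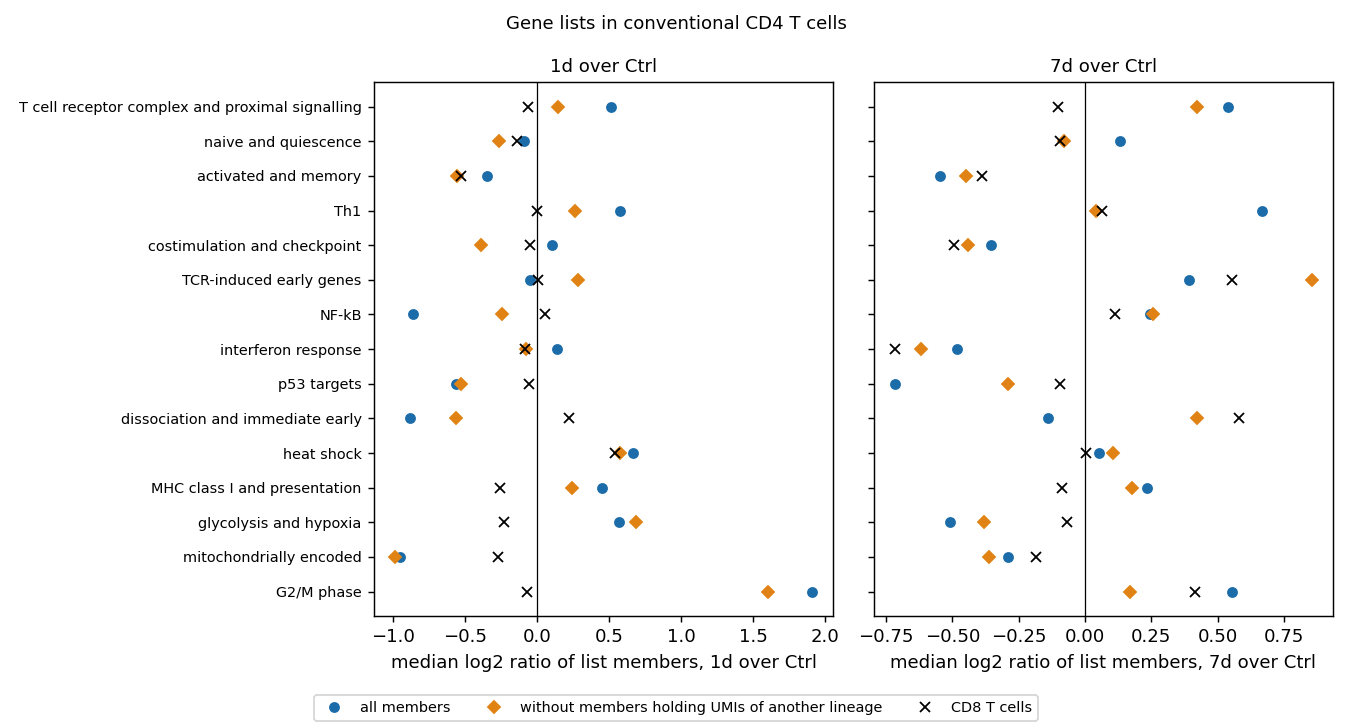
Median log2 ratio of the measured genes of 15 lists at 1d over Ctrl (left) and 7d over Ctrl (right), for all members (blue circles), without the mixed members (orange diamonds) and in CD8 T cells (crosses). At 7d the receptor-induced early genes read 0.39, 0.85 and 0.55 and the interferon genes -0.48, -0.62 and -0.72, and at 1d the G2/M list reads 1.91 and 1.61 in the members.

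At 1d, lists of heat shock and G2/M genes had more members past 2-fold above Ctrl than below, and the mitochondrially encoded, immediate early, p53 and NF-kB lists more below than above. Among 2920 measured genes 254 (8.7%) were at least 2-fold higher and 451 (15.4%) at least 2-fold lower, with a median log2 ratio of 0.065. Scaling by TMM, which trims extreme genes, shifted all 1d log2 ratios by -0.33 and gave 113 higher and 649 lower, so the balance of directions depends on the scaling. The corresponding shift at 7d was 0.033. Without the mixed Ctrl members 160 of 2208 genes (7.25%) were higher and 233 (10.6%) lower. The comparison shares its Ctrl members with that at 7d.

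Heat shock genes lay mostly on the higher side. Hspa1a, the inducible Hsp70 chaperone, was at 796 CPM in Ctrl (695 to 908), 3289 at 1d (2880 to 3740) and 387 at 7d (320 to 464), and it was seen in 12 of 69, 6 of 11 and 17 of 75 members. The 1d ratio was 4.13 (3.42 to 4.99), and 4.51 (3.64 to 5.6) without the mixed members. Hsph1, a co-chaperone of Hsp70, was 3.17 times higher (2.43 to 4.14). Of 15 measured genes 4 were higher and 2 lower, beside 8.7% higher and 15.4% lower over all genes. The median log2 ratio was 0.67, and the median in CD8 T cells was 0.54, where Hspa1a had a ratio of 2.81.

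Cell division genes at 1d came from few cells. Of 10 measured G2/M genes 9 were at least 2-fold higher, with a median log2 ratio of 1.91, against -0.065 in CD8 T cells. Mki67, a marker of dividing cells, went from 23 UMIs in 4 Ctrl members to 27 UMIs in 3 members at 1d, where 1 cell held 85.2% of them, and its ratio was 4.62 (2.55 to 8.44). The ubiquitin-conjugating enzyme gene Ube2c went from 6 to 25 UMIs, Ccnb2, a mitotic cyclin, from 3 to 19, and Hmgb2 from 1212 to 3459 CPM. In thinned cells, at least 2 of 6 division genes were seen in 2 of 69, 1 of 10 and 3 of 75 members. Mki67, Ube2c and Ccnb2 were each seen in 2 or 3 members at 1d, and Hmgb2 in 9 of 11. The S phase list lay the other way, with 2 of 7 measured genes lower, none higher and a median log2 ratio of -0.83, or -1.06 without the mixed Ctrl members.

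A few genes higher at 1d did not rest on 1 cell. Tob2, an antiproliferative protein, was seen in 27 of 69 Ctrl members and 9 of 11 at 1d, with a ratio of 2.19 (1.45 to 3.26), and the Hsp70 partner St13 in 18 and 8 members, with 2.33 (1.17 to 4.49). Dapp1, a signalling adaptor best known in B cells, had a ratio of 3.58 (1.36 to 9.28), and Ubn1, a histone chaperone subunit, 2.13 (1.17 to 3.76). Without the mixed Ctrl members Dapp1 had 2.45 (0.931 to 6.34) and Ubn1 1.45 (0.8 to 2.57), intervals that include 1, Tob2 2.03 (1.31 to 3.12) and St13 2.05 (1.00 to 4.12). CD8 T cell ratios of Tob2, St13, Dapp1 and Ubn1 were 1.29, 1.03, 0.857 and 1.14.

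Glycolysis and hypoxia genes had 3 of 15 higher and 2 lower at 1d, beside 8.7% higher and 15.4% lower over all genes. Their median log2 ratio was 0.57, or 0.69 without the mixed Ctrl members and -0.23 in CD8 T cells. Several receptor-signalling and MHC genes were also higher but rested on deep cells. Lck, the kinase bound to CD4, had a ratio of 2.69 (1.57 to 4.55) with 42.3% of its 1d UMIs in 1 cell, and Cd6 had 2.50 (1.64 to 3.77) with 57.5%. Itgb1, the beta integrin of memory T cells, had 2.71 (1.8 to 4.04), and Hopx, a factor of persisting Th1 cells, 3.21 (1.74 to 5.85). The class I gene H2-Q6 was seen in 10 of 11 members with a ratio of 2.60 (1.85 to 3.62), and the immunoproteasome subunit gene Psmb8 had 2.79 (1.67 to 4.59). H2-Q6 and Psmb8 had CD8 T cell ratios of 0.848 and 1.05.

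The naive and quiescence genes went both ways at 1d. Satb1, a chromatin organiser of naive T cells, was at 882, 353 and 554 CPM in Ctrl, 1d and 7d, a 1d ratio of 0.400 (0.254 to 0.605), and Il7r was at 247, 113 and 184 CPM, a ratio of 0.457 (0.190 to 0.951). Btg1, an antiproliferative gene of resting lymphocytes, was at 2345, 1186 and 2984 CPM. CD8 T cell ratios at 1d of Satb1, Il7r and Btg1 were 0.907, 1.07 and 1.06. Klf2 was higher with all members, at 305 and 508 CPM, a ratio of 1.67 (1.10 to 2.49). Without the mixed Ctrl members its ratio was 1.27 (0.832 to 1.92), an interval that includes 1. Across the processing settings the 1d ratio of Klf2 ran from 0.837 to 3.27. The list had 5 of 16 genes at least 2-fold lower and none higher, 7 with a ratio above 1, and a median log2 ratio of -0.091.

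The strongest lower genes included Emb, a membrane partner of lactate transporters, at 1007 CPM in Ctrl and 268 at 1d, with a ratio of 0.266 (0.158 to 0.424), and Odc1, the first enzyme of polyamine synthesis, at 2061 and 762 CPM, with 0.370 (0.274 to 0.489). Ramp3 had a ratio of 0.252 (0.123 to 0.462) and Tmem64 0.199 (0.0632 to 0.480). Pmepa1, an inhibitor of TGF-beta signalling, had 0.318 (0.149 to 0.604), and Kbtbd11 went from 43 UMIs to 1, a ratio of 0.0916 (0.00227 to 0.538). Emb and Odc1 were back near the Ctrl level at 7d, at 898 and 2287 CPM. CD8 T cells had 1d ratios of 0.895 for Emb and 0.832 for Odc1.

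The p53, immediate early and NF-kB lists had more genes lower than higher at 1d. Over all genes 15.4% were lower and 8.7% higher. The p53 list had 14 measured genes, 6 at least 2-fold lower and none higher, with a median log2 ratio of -0.56, and Cdkn1a went from 470 to 127 CPM, a ratio of 0.271 (0.121 to 0.529). Immediate early genes had 9 of 20 lower and none higher, with a median of -0.88, and NF-kB genes had 9 of 19 lower and 2 higher, with a median of -0.86. Without the mixed Ctrl members the medians of these 3 lists were -0.52, -0.56 and -0.24. Nfkbia, the feedback inhibitor of NF-kB, had a ratio of 0.332 (0.182 to 0.562), or 0.504 (0.270 to 0.883) without them. The receptor-induced early list differed, with 3 of 14 genes higher, Nr4a3 among them, 3 lower and a median of -0.047, or 0.29 without the mixed members. Mitochondrially encoded genes had 5 of 11 lower and none higher, with a median of -0.95, and mt-Nd4 went from 1491 to 692 CPM.

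Between 1d and 7d, 409 of 2939 measured genes (13.9%) were at least 2-fold higher at 7d and 278 (9.46%) at least 2-fold lower, with a median log2 ratio of -0.041. Ccl5 was 17.3 times higher at 7d than at 1d (7.87 to 47.3), Emb 3.35 times (2.1 to 5.65) and Btg1 2.52 times (2.01 to 3.19). Hspa1a was at 0.118 of its 1d level (0.0934 to 0.148) and Psmb8 at 0.318 (0.192 to 0.533). The same comparison in CD8 T cells gave 1.01 for Ccl5, 0.678 for Emb, 1.11 for Btg1, 0.183 for Hspa1a and 1.03 for Psmb8. It uses the 11 members of the 1d library again.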

How the data were processed

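Droplet libraries of pooled jaw cells were deposited by the authors as raw UMI counts per gene and barcode in 3 matrices, written by Cell Ranger 6.1.1 per the file headers. The submitters' processing notes also name CASAVA 1.8, Seurat and mm10. No replicates were given. Counts of 31253 genes were read as deposited. Python 3.11.15 with numpy 2.4.6, scipy 1.17.1, pandas 2.3.3, scanpy 1.11.5 and matplotlib 3.10.9 was used, and edgeR 4.0.16 in R 4.3.3 for TMM factors only.

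UMIs were summed over the members of a library and expressed as CPM with exact Poisson intervals. Ratios have exact conditional binomial intervals and shares exact Clopper-Pearson intervals, all at 95%. A gene was measured with at least 20 UMIs over both libraries and counted past 2-fold at a ratio of at least 2 or at most 0.5. List medians add 0.5 UMIs to each count. Shares of cells with a UMI were also taken after thinning to 1000 UMIs. The rule has no doublet filter. Leaving out the cells with the highest Scrublet scores, 0.8% per 1000 barcodes, was an alternative, beside a stricter cell filter, thinning, other UMI limits, TMM scaling and the mean over cells.

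Genes were named by rule: the 10 per side furthest from 1 by the nearer interval end, seen in at least 10% of members with no cell over 20% of UMIs and a level there at or above that of all kept cells, up to 4 per list, and a fixed set. Gene models, haemoglobin, immunoglobulin, mitochondrially encoded, ribosomal and Y-linked genes were left out of the first group. The text gives a selection of these. The CD4 over CD8 genes, the genes beside the promoter, Bbc3, Tnf, Zbp1 and those counted in Ccl5-rich cells were named after their values were seen. Members and lists were chosen with earlier results of these data known. The calculations were tested on simulated data. Promoter windows came from RefSeq, GRCm38.p6, and gene positions from GENCODE on the same build. Some single genes are not reported here.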

Additional observations from a re-analysis of the deposited data

Results flagged for a closer look

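Among the genes described, in 5 cases the ratio to Ctrl lay on one side of 1 in conventional CD4 T cells and on the other in CD8 T cells, with intervals that excluded 1 in both. The difference itself was not tested, since each group is 1 library.

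At 1d Fos had a ratio of 0.170 (0.0768 to 0.330) in CD4 and 1.35 (1.08 to 1.68) in CD8 T cells, and without the mixed members the CD4 ratio was 0.410. At 7d Cd247 had 2.30 (1.48 to 3.64) against 0.743 (0.608 to 0.908), and 1.90 without them. The 7d ratios of Egr1 were 0.402 against 1.81, those of Fosb 0.282 against 1.82 and those of Jun 0.330 against 1.63. Without the mixed members the CD4 ratios of Egr1, Fosb and Jun were 1.83, 1.15 and 1.19, on the same side as in CD8 T cells.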

How the results depend on the processing

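No paired analysis was possible because each group is 1 library and the labels give no replicates that could be matched. The share ratio kept its direction under all 6 alternatives at 1d and at 7d, and at 7d 3 of the 6 intervals included 1. The rule applied to cells thinned to 1000 UMIs left no member at 1d, a ratio of 0 with an upper limit of 0.438.

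The counts of genes at least 2-fold higher and lower at 1d (254 and 451) became 35 and 96 in thinned cells, 160 and 233 without mixed members, 118 and 200 in members under 7000 UMIs, and 25 and 57 among genes with at least 100 UMIs. Doublet removal gave 221 lower and TMM 113 higher. At 7d (286 and 360) they became 93 and 65 in thinned cells and 39 and 36 with at least 100 UMIs, while lower genes were 185 after doublet removal, 201 without mixed members and 171 under 7000 UMIs. Naive-only cells without thinning were 5.80% in Ctrl and 8.0% at 7d, memory-only cells 18.8% and 12%. The settings without mixed members and under 7000 UMIs were chosen after seeing the data.

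Some list medians changed sign: Th1 at 1d to -0.19 (mean over cells) and -0.067 (under 7000 UMIs), NF-kB and S phase at 1d to 0.055 and 0.066 (at least 5 UMIs), Th17 at 7d to 0.056 (doublets removed) and 0.077 (without mixed members), glycolysis and hypoxia at 7d to 0.0099 (thinned), and activated and memory at 7d to 0.051 (at least 100 UMIs). Gene ratios that crossed 1 in thinned cells included Aplp2 1.09, Ccng1 2.96 and Slc6a6 5.18 at 1d. At 7d they included Arl8a 0.307, Dnajc19 1.38, Egr1 1.19, Gbp2 1.84 and Jun 1.15. Some ratios nearer to 1 also lay on both sides of it across the settings. At 7d Slc6a6 ran from 0.503 to 2.3, Ccr7 from 0.678 to 1.55, Gata3 from 0.562 to 1.19 and Cd3e from 0.675 to 1.26. Doublet removal gave Egr1 1.84, Fosb 1.01 and Jun 1.27, leaving out mixed members 1.83, 1.15 and 1.19, the mean over cells Egr1 1.11, and members under 7000 UMIs Egr1 2.03, Jun 1.00 and Ly6c2 0.639. The cause of these changes was not tested. Some of these settings leave fewer cells or UMIs, while the mean over cells uses all members. With 11 members, 1d limits every value.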
